A study of Mus musculus with 9 samples.

Results

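Livers of mice that lack protease-activated receptor 2 (PAR2) in hepatocytes were compared with livers of floxed controls, over all genes of a table of raw counts. The comparison uses 6 of the 9 libraries of the series: 3 labelled PAR2dHep (dHep) and 3 labelled PAR2fl/fl (WT), which carry the floxed gene. The remaining 3 libraries, labelled PAR2 KO for loss in the whole body (KO), entered the fit for its estimate of spread and are set beside dHep where stated. All mice were C57BL/6, 6 to 8 weeks old at the start, and received a high-fat diet (HFD) for 16 weeks before liver poly(A) RNA was sequenced with a stranded kit. The driver of Cre, the sex of the mice and their cages are not given in the sources used here, and nothing states whether WT mice carried Cre. The design text gives 3 mice in each group, so the spread between libraries of a group includes that between mice.

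PAR2, encoded by F2rl1, is a receptor of the cell surface that serine proteases switch on by cutting its outer end, which then acts as a tethered ligand. Coagulation proteases such as tissue factor with factor VIIa, and trypsin-like enzymes, cut it, and the signal runs through G proteins and arrestins. The series title links PAR2 to dyslipidemia, obesity, fatty liver disease and HNF4A, a transcription factor that maintains the hepatocyte program of secretion, detoxification and lipid export. Whole liver RNA was measured, in which fewer cells of a type and less RNA per cell cannot be told apart.

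F2rl1 stood at 0.639, 1 and 0.998 CPM in WT, where CPM are a gene's reads per 1000000 assigned reads after TMM scaling. In dHep it stood at 0.06, 0.321 and 0 CPM. The libraries labelled KO held 3.33, 4.66 and 4.39 CPM. The dHep libraries lay below the WT libraries, with a log2 fold change of -2.73 ± 0.66 (SE; adjusted p = 0.0164 in edgeR). The call ended without WT replicate 2 (0.0595), WT replicate 3 (0.062) or dHep replicate 1 (0.0505), and without dHep replicate 2 the log2 fold change was -4.40. The libraries labelled KO were the highest of the 9, against their label, and reads over the deleted part of the gene were not separated here. F2r, the neighbouring gene for the thrombin receptor PAR1, had 47.5, 40.6 and 46.5 CPM in WT and 24.6, 23.1 and 25.3 CPM in dHep, without overlap. It fell by 0.89 on the log2 scale (SE 0.10, edgeR adjusted p = 0.000711). Of 24 tested genes within 2000000 bases of F2rl1, 5 were called: Dmgdh rose, and F2r, Arsb, Col4a3bp and Enc1 fell. That share was no higher than the 24.3% called over all tested genes.

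Of 23337 genes in the table, 13141 had enough reads to be tested. At an edgeR adjusted p under 0.05, which is what called, rose and fell mean here, 3192 (24.3%) were called in dHep against WT. Of these, 1624 (12.4%) rose and 1568 (11.9%) fell, and 366 rises and 808 falls exceeded a log2 fold change of 1 in size. The median log2 fold change over all tested genes was 0.02. Called falls were thus more often large than called rises. The 3 dHep and 3 WT libraries did not overlap for 5708 genes (43.4%), with dHep above in 2734 and below in 2974. Leaving out 1 WT library left 1952, 1438 or 1359 called genes, for WT replicate 1, 2 and 3 in turn. A count of members below is followed in parentheses by its value under each alternative fit that moved it by more than 1.5 times, other than a block for the replicate number and except for counts under 4.

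Depth ran from 23104686 to 30509242 assigned reads in dHep and from 24493607 to 25570388 in WT. The median gene varied more between the dHep libraries, with an SD of log2 CPM of 0.282, than between the WT libraries, with 0.107. Transcripts of other organs set 3 libraries apart. Markers of pancreatic acinar cells summed to 2022 CPM in dHep replicate 2 and 532.5 CPM in WT replicate 1, against 12.9 to 85.0 CPM in the other 7 libraries. In those 7, most of the sum was the single marker Cela1. It had 83.4 and 77.1 CPM in dHep replicates 1 and 3, and 12.5 and 10.4 CPM in WT replicates 2 and 3. The libraries labelled KO held 78.3, 81.1 and 74.3 CPM of it. Skeletal muscle markers summed to 906.2 CPM in dHep replicate 2 and to 2.96 to 78.1 CPM elsewhere. The library labelled KO replicate 1 held genes of intestinal epithelium, with Sis at 76.1 CPM, Cdh17 at 20.9 CPM and Krt20 at 24.4 CPM, against at most 0.0452, 0.113 and 1.18 CPM in the other 8 libraries. Without it, 3035 genes were called in dHep against WT, 1519 rises and 1516 falls. Without WT replicate 1 and dHep replicate 2 together, 2840 genes were called, 1399 rises and 1441 falls. Of the tested markers, 6 of 15 for muscle, 1 of 9 for acinar cells and 2 of 6 for adipocytes were called as rises.

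Gene length moved with the groups. Among the shortest quintile of genes, 67 to 1623 bases long, 26.4% rose and 6.50% fell in dHep, and the median log2 fold change was 0.28. Among the longest quintile, 4760 to 104320 bases, 4.46% rose and 16.1% fell, and the median was -0.14. The median short gene stood at -0.215, -0.189 and -0.190 in the WT libraries, on the log2 scale, as the difference from the mean of the 9 libraries. In the dHep libraries the same median was 0.0201, -0.0760 and 0.224. Replicate 3 of dHep thus lay farthest from WT on this measure, as it did for the longest genes, where it stood at -0.219 against 0.0754 and 0.116 in the other 2. Fits with an offset for each library's trend over length, added after the data were seen, called 1489 rises and 1570 falls, of which 1193 and 1354 were also called without it. The part of length in the results below was not tested beyond that offset, which is named where it moves a count.

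**Figure D1:**
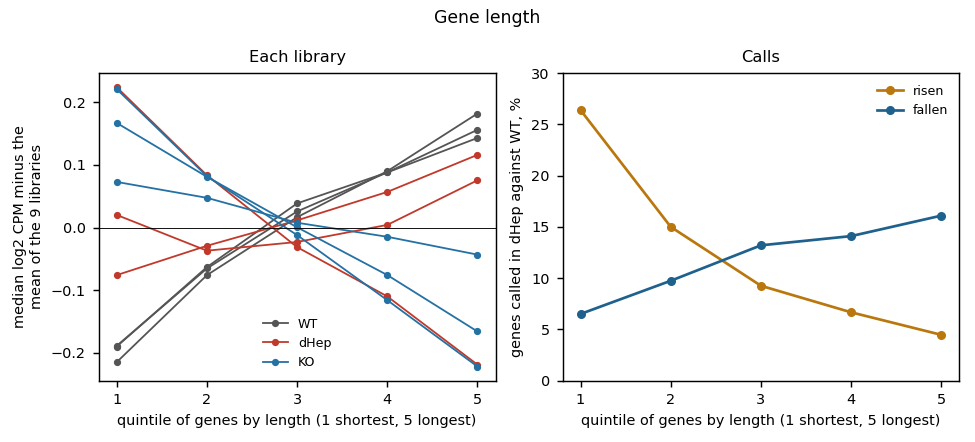
Left, median log2 CPM of the genes in each quintile of length, as the difference from the mean of the 9 libraries, with 1 line per library. Right, the percentage of each quintile that rose or fell in dHep against WT. Rises go from 26.4% in the shortest quintile to 4.46% in the longest, and falls from 6.50% to 16.1%.

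The gene groups named below differed widely in how many of their members were called. The plot of gene groups gives the share of each that rose or fell, beside the shares over all genes tested. The groups are lists of known members, and several genes stand in more than 1 list.

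**Figure D2:**
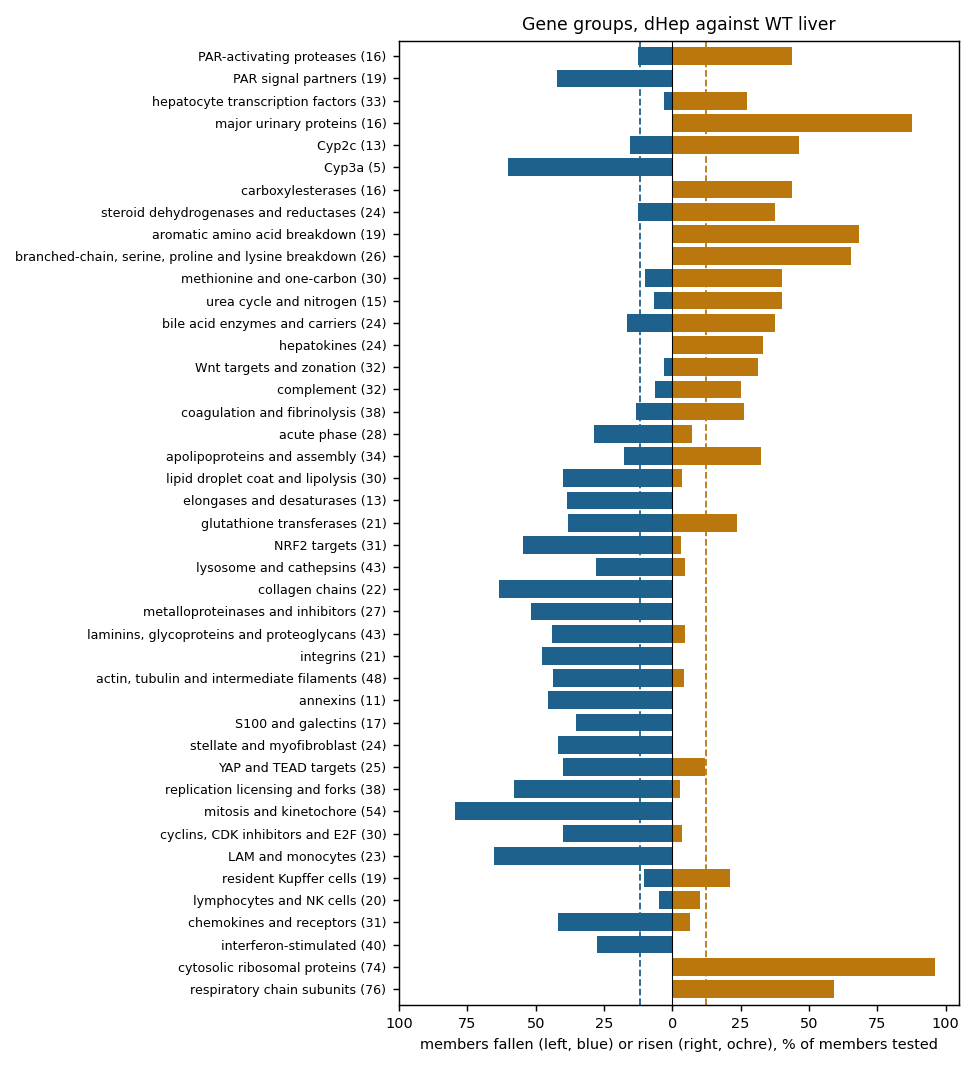
Share of tested members (number in parentheses) that rose, to the right, or fell, to the left, in dHep against WT. Dashed lines mark the shares over all 13141 genes tested, 12.4% rises and 11.9% falls. Mup, ribosomal and amino acid groups lie to the right, and mitosis, collagen and macrophage groups to the left.

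Around the receptor, several genes for proteases that can cut PARs rose, while genes for its signal partners moved down. Of 16 proteases, 7 rose (4 without WT replicate 2 or 3 or without WT replicate 1 and dHep replicate 2 together) and 2 fell. That share of falls, 12.5%, was near the 11.9% over all genes. F7, the liver-made protease that binds tissue factor, had 49, 47.3 and 40.1 CPM in WT and 80.3, 142 and 127 CPM in dHep, so every dHep library was higher. Its log2 fold change was 1.36 ± 0.19 (SE; adjusted p = 0.00174 in edgeR). Hpn (hepsin, 0.75 ± 0.15), Hgfac (0.69 ± 0.14) and Proc (protein C, 0.95 ± 0.20) rose too, all secreted or surface proteases of hepatocytes. Plau, the urokinase gene, fell (-1.48 ± 0.19), as did Ctss, a cathepsin of macrophages (-1.33 ± 0.23). Of 19 genes for G protein subunits, arrestins and their regulators, 0 rose and 8 fell (3 without WT replicate 1, 2 or 3, 4 without dHep replicate 3). Rgs2, a brake on Gq signalling, had 8.68, 10 and 10.2 CPM in WT and 3.87, 5.5 and 3.29 CPM in dHep, and Prkca, a protein kinase C, had 33, 30.8 and 35.6 CPM in WT and 20.4, 11.8 and 11.6 CPM in dHep. Both were lower in every dHep library, with log2 fold changes of -1.19 ± 0.20 and -1.18 ± 0.21.

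Genes for transcription factors of the hepatocyte leaned upward. Hnf4a had 488, 476 and 497 CPM in WT and 578, 699.9 and 539 CPM in dHep. The dHep libraries were all above the WT libraries, but the difference of 0.31 ± 0.13 (SE; adjusted p = 0.105 in edgeR) was not called. It was called by DESeq2 (adjusted p = 0.0335) and by edgeR with the length offset (0.42, adjusted p = 0.0169). Of 33 such factors, 9 rose (3 without WT replicate 2 or 3, 5 without WT replicate 1 or without KO replicate 3) and 1 fell. Mlxipl, the carbohydrate-sensing factor ChREBP, rose by 1.02 on the log2 scale. Pparg, which drives lipid storage in fatty liver, was the 1 that fell, from 37.5, 35.3 and 39.5 to 12.5, 10.8 and 14.7 CPM, with a log2 fold change of -1.57 ± 0.13 (SE; adjusted p = 0.000163 in edgeR). Promoters with the HNF4A words CAAAGTCCA or CAAAGGTCA on either strand made up 1.11% of risen genes, 1.06% of fallen genes and 0.867% of all 9453 tested genes with a RefSeq promoter of 300 bases. Their 95% Wilson intervals (0.648% to 1.89%, 0.609% to 1.85% and 0.699% to 1.08%) overlapped. Only 13 risen and 12 fallen genes, and 82 of all, held such a word, and the set of all includes the others. With so few matches, the overlap cannot show whether the groups differ.

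Markers of the hepatocyte itself, such as the albumin gene Alb, were not lower in dHep. The 8 hepatocyte markers summed to 95910 to 101500 CPM in WT and to 105300 to 156400 CPM in dHep, and 4 of them rose and 0 fell. Albumin held most of that sum and was not called (0.28 ± 0.33).

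Male-biased genes of the liver that follow growth hormone were high in dHep. Genes of the growth hormone axis itself leaned upward, though most were not called. The sex of the mice is not given, and the part of sex in these differences was not tested. Major urinary proteins are pheromone carriers that male mouse liver secretes under pulses of growth hormone. Of 16 tested Mup genes, 14 rose and 0 fell, with a median log2 fold change of 2.82. Mup3, the largest rise in CPM of any called gene, had 4371, 3048 and 2370.3 CPM in WT and 11935, 10379.6 and 14569 CPM in dHep. Every dHep library was well above every WT library, and the log2 fold change was 1.91 ± 0.28 (SE; adjusted p = 0.00202 in edgeR). Mup7 rose more steeply, from 73.5, 5.37 and 3.28 to 3038, 1869 and 3523 CPM (6.68 ± 1.15), and WT replicate 1 stood above the other WT libraries. Mup copies are close to identical in sequence, so counts of single Mup genes are uncertain. Hsd3b5, a steroid reductase of male liver, had 1.01, 0.259 and 0.107 CPM in WT and 282, 217 and 232 CPM in dHep, a change of 9.05 ± 0.48 (SE; adjusted p = 4.58e-05 in edgeR). Slco1a1, an organic anion carrier, rose from 38.1, 6.22 and 3.99 to 549.8, 863 and 606 CPM (5.39 ± 0.79). Without WT replicate 1, these log2 fold changes were 9.34 for Mup7, 10.35 for Hsd3b5 and 7.04 for Slco1a1. Of 18 genes of the growth hormone and STAT5 axis, 4 rose, 1 fell and 13 were not called, among them the receptor gene Ghr (0.33 ± 0.13), Stat5b (0.16 ± 0.12) and Socs2 (1.01 ± 0.82). The median log2 fold change of the 18 was 0.73, and 15 of them had a positive value. Igf1, the main growth hormone target, rose by 0.85 ± 0.16, Igfals, which holds it in blood, by 1.50 ± 0.25, and Igfbp2, another IGF carrier, by 3.48 ± 0.31 on the log2 scale. Igfbp3 fell (-1.45 ± 0.20). Egfr, the EGF receptor, rose (2.40 ± 0.51, SE; adjusted p = 0.00982 in edgeR), with dHep replicate 1 at 141 CPM near WT replicate 1 at 113 CPM. The Egfr call ended without WT replicate 2 (0.0505) or 3 (0.051), and the log2 fold change was 1.80 without dHep replicate 2.

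Cytochrome P450 genes, which oxidise drugs, steroids and fatty acids, split by subfamily. Of 13 Cyp2c genes, 6 rose and 2 fell. Cyp2c70, which makes muricholic bile acids, had 135, 119 and 121 CPM in WT and 327, 604 and 534 CPM in dHep, without overlap (1.96 ± 0.26). Cyp2c38 (-1.72 ± 0.27) and Cyp2c39 (-2.02 ± 0.33) were the members that fell. Of 5 Cyp3a genes, 0 rose and 3 fell. Cyp3a11, the most abundant of them, had 1915, 2122 and 2021 CPM in WT and 384, 762 and 554 CPM in dHep, so that the highest dHep library held less than any WT library. Its log2 fold change was -1.83 ± 0.23 (SE; adjusted p = 0.00109 in edgeR). Among 7 Cyp2a and Cyp2b genes, female-biased Cyp2b9 fell from 352, 592 and 464 to 84.3, 149 and 170.3 CPM (-1.80 ± 0.26), and 4 fell in all. Cyp2a5 was the 1 rise among them, with a log2 fold change of 1.32. Its call ended without any 1 WT or KO library, without dHep replicate 2 or 3, with limma voom and with the 2 groups alone. Cyp1a2, a target of the dioxin receptor, rose from 169, 118 and 118 to 466, 677 and 1148 CPM (2.50 ± 0.30). It was the 1 rise among 7 tested genes of the Cyp1 family and that receptor's pathway. In that list 1 gene fell, and the median log2 fold change was -0.41. Members of these families share sequence, and reads may be split between copies.

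Carboxylesterases, which hydrolyse esters and lipids, and steroid dehydrogenases leaned upward. Of 16 carboxylesterase genes, 7 rose (3 without WT replicate 2 or 3, 4 without dHep replicate 3 or with the 2 groups alone or with the length offset) and 0 fell. Ces2a had 91.7, 78.6 and 64.7 CPM in WT and 135, 266 and 231 CPM in dHep, and all dHep libraries were higher (1.43 ± 0.23). Of 24 steroid dehydrogenases and reductases, 9 rose (3 without WT replicate 2, 4 without WT replicate 3, 5 without dHep replicate 3 or with limma voom) and 3 fell. Hsd17b13, a lipid droplet protein of fatty liver, was among the falls, from 715, 827 and 926 to 291, 484 and 421 CPM (-1.05 ± 0.18).

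Amino acid breakdown was among the groups with the most rises. Of 26 genes for the breakdown of branched-chain amino acids, serine, proline and lysine, 17 rose and 0 fell, with a median log2 fold change of 0.60. Ivd, for isovaleryl-CoA dehydrogenase of leucine breakdown, had 99.4, 101 and 88.1 CPM in WT and 176, 243 and 275 CPM in dHep. Agxt, which removes glyoxylate, had 112, 133 and 103 CPM in WT and 380.5, 266 and 265 CPM in dHep. The dHep libraries were higher than all WT libraries for both, with log2 fold changes of 1.26 ± 0.15 and 1.39 ± 0.16. Dbt, a subunit of the branched-chain complex, rose by 0.89 ± 0.10. Of 19 genes for phenylalanine, tyrosine and tryptophan, 13 rose (7 without WT replicate 2 or 3, 8 without dHep replicate 3) and 0 fell. Hpd, a tyrosine dioxygenase, had 1115, 1148 and 928 CPM in WT and 2501, 2709 and 3386 CPM in dHep, and Afmid, of the kynurenine branch, had 43.7, 45.1 and 37.3 CPM in WT and 121, 157 and 195 CPM in dHep. Neither overlapped, and they rose by 1.43 ± 0.16 and 1.91 ± 0.17.

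In the methionine cycle, which supplies methyl groups, 12 of 30 genes rose (5 without WT replicate 3) and 3 fell. Gnmt, which disposes of excess methyl groups on glycine, had 297, 333 and 262 CPM in WT and 938, 880.4 and 1072 CPM in dHep. All dHep libraries were well above WT, and the log2 fold change was 1.70 ± 0.14 (SE; adjusted p = 0.00019 in edgeR). Nnmt, which methylates nicotinamide, rose from 57.8, 72.6 and 47.9 to 143, 123 and 179 CPM (1.32 ± 0.18). The mitochondrial folate enzyme Mthfd1l fell (-2.08 ± 0.31), as did Csad, an enzyme of taurine synthesis (-2.37 ± 0.25). Urea cycle and nitrogen genes rose in 6 of 15 cases (3 without WT replicate 2 or 3) and fell in 1, with Nags, which makes the activator of the cycle, at 1.04 ± 0.14. Genes for bile acid enzymes and carriers rose in 9 of 24 cases (4 without WT replicate 2 or 3) and fell in 4 (1 without WT replicate 2 or 3, 2 without WT replicate 1 and dHep replicate 2 together). Cyp7b1, of the alternative pathway, had 63, 32.4 and 30.9 CPM in WT and 145, 173 and 277 CPM in dHep, without overlap (2.24 ± 0.32). Cyp7a1, the rate-limiting enzyme of the classical pathway, had 67.5, 47.9 and 75.6 CPM in WT and 54.4, 262 and 242 CPM in dHep. There the groups overlapped: dHep replicate 1 lay within the WT range and the other 2 far above it. Its call (1.54 ± 0.49, SE; adjusted p = 0.0462 in edgeR) ended without WT replicate 1, 2 or 3 (0.108, 0.156 and 0.105), dHep replicate 2 or 3 (0.104 and 0.124) or KO replicate 1, 2 or 3 (0.0607, 0.0638 and 0.0604). It ended too with limma voom (0.144) and with the 2 groups alone (0.0762).

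Plasma proteins made by the liver moved in opposite directions by class. Hepatokines, hormones that the liver secretes, rose in 8 of 24 cases and fell in 0. Enho, which encodes adropin, had 1.16, 1.11 and 0.677 CPM in WT and 11.6, 15.9 and 15.7 CPM in dHep. Its dHep libraries were all far above the WT libraries, a log2 fold change of 3.87 ± 0.25 (SE; adjusted p = 8e-05 in edgeR). Fetub and Ahsg, the fetuins, rose by 1.35 ± 0.22 and 1.03 ± 0.18. Complement genes rose in 8 of 32 cases (4 without WT replicate 3, 5 without WT replicate 2) and fell in 2. C8b, a part of the membrane attack complex, went from 99.4, 56.7 and 44.1 to 223, 396 and 288 CPM (2.18 ± 0.31). Coagulation and fibrinolysis genes rose in 10 of 38 cases (5 without WT replicate 2 or 3 or without WT replicate 1 and dHep replicate 2 together, 17 without dHep replicate 1) and fell in 5 (8 without dHep replicate 2). F11 rose (1.24 ± 0.15), and Plat, tissue plasminogen activator, fell (-2.02 ± 0.40, and -2.69 without dHep replicate 2). The alpha-1 antitrypsin copy Serpina1e rose from 274, 130.2 and 74.6 to 3975, 2811 and 2876 CPM (4.33 ± 0.44, and 4.97 without WT replicate 1), with reads shared among near-identical copies. Acute-phase genes, which inflammation raises, fell in 8 of 28 cases and rose in 2. Lcn2 had 42, 69.5 and 42.8 CPM in WT and 4.38, 6.02 and 6.42 CPM in dHep, and Saa2, a serum amyloid, had 86.8, 147 and 73 CPM in WT and 17.4, 31.4 and 15 CPM in dHep. Both were lower in every dHep library, by log2 fold changes of -3.20 ± 0.30 and -2.27 ± 0.36.

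Genes of lipid storage and fatty acid modification were lower in dHep. Of 30 lipid droplet and lipolysis genes, 12 fell (7 without WT replicate 2) and 1 rose. Cidec, which fuses lipid droplets, had 55.7, 68.8 and 83.4 CPM in WT and 1.89, 4.5 and 3.19 CPM in dHep, and Cidea, its relative, had 22.8, 17.5 and 12.9 CPM in WT and 0.839, 1.29 and 0.147 CPM in dHep. The 2 groups did not overlap for either, with log2 fold changes of -4.45 ± 0.30 (SE; adjusted p = 8.49e-05 in edgeR) and -4.49 ± 0.65 (SE; adjusted p = 0.00201 in edgeR). Plin2, the droplet coat of steatotic hepatocytes, fell from 989, 1178 and 1352 to 429, 351 and 584 CPM (-1.37 ± 0.20), and Plin4 fell by 2.80 ± 0.24. Plin1, the coat of adipocytes, was the 1 rise, with 0.54, 2.13 and 0.196 CPM in dHep and 1 read in all of WT (ratio 77.9, 95% counting interval 13.6 to 3120). Its call ended without any 1 WT library (0.0849, 0.098 and 0.0937) or dHep replicate 2 (0.0572). The 7 adipocyte markers summed to 3750 to 6648 CPM in dHep and 3463 to 4323 CPM in WT, nearly all Car3, which hepatocytes also express. Adipoq, which only adipocytes are known to express strongly, had 0.899, 4.78 and 0.687 CPM in dHep and 0.285 to 0.451 CPM in WT. Adipoq, Retn (1.81 CPM) and Cfd (7.39 CPM) were highest in dHep replicate 2, as Plin1 was. The part of adipose tissue in it was not tested. Cd36, a fatty acid receptor, had 485, 577 and 555 CPM in WT and 66.9, 75.5 and 104 CPM in dHep, a log2 fold change of -2.71 ± 0.20 (SE; adjusted p = 0.000103 in edgeR). Of 13 elongases and desaturases, 5 fell (3 without WT replicate 2 or 3 or without dHep replicate 1 or with the 2 groups alone) and 0 rose. Scd1, which makes oleate, showed the largest fall in CPM of any called gene, from 8646, 16263 and 18168 to 2628, 3348 and 1433 CPM (-2.54 ± 0.42, SE; adjusted p = 0.00384 in edgeR). Elovl5, an elongase of polyunsaturated fatty acids, went from 907, 1442 and 1478 to 462, 279 and 242 CPM (-1.96 ± 0.26). Fasn, the fatty acid synthase, had 448, 1213 and 744 CPM in WT and 283, 477 and 247 CPM in dHep, and the groups overlapped through WT replicate 1 and dHep replicate 2 (-1.26 ± 0.36, SE; adjusted p = 0.0308 in edgeR). The Fasn call ended without WT replicate 2 (0.123) or 3 (0.077), dHep replicate 1 (0.0815) or 3 (0.0921) or KO replicate 3 (0.0509). It ended too with limma voom (0.0768), the 2 groups alone (0.0627) and the length offset (0.0529), while without WT replicate 1 and dHep replicate 2 together it was -1.88 (0.0042).

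Apolipoprotein and lipoprotein assembly genes split, with 11 of 34 rising and 6 falling (3 without WT replicate 2 or 3). Apoa1, the main protein of HDL, rose from 3872, 3617 and 3818 to 6403, 8427 and 8161 CPM (1.02 ± 0.18). Apoa4, which marks lipid loading of liver, went from 1894, 2847 and 3870.0 to 313, 151 and 318 CPM, without overlap (-3.46 ± 0.34, SE; adjusted p = 0.000392 in edgeR). Apob, the scaffold of VLDL and LDL, had 7606, 8191 and 8131 CPM in WT and 4158, 4210.1 and 5186 CPM in dHep and a log2 fold change of -0.82 ± 0.18 (SE; adjusted p = 0.0109 in edgeR). The call was lost with the length offset (0.143) and with the 2 groups alone (0.0543).

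Genes that defend against oxidants and electrophiles were lower. Of 31 targets of the antioxidant factor NRF2, 17 fell (11 without WT replicate 2) and 1 rose, with a median log2 fold change of -0.76. Gsta1, a glutathione transferase, had 12.2, 13.4 and 21.5 CPM in WT and 0.3, 0.161 and 0.589 CPM in dHep, and Gstm3 had 149, 181 and 282 CPM in WT and 25.8, 17.9 and 27.8 CPM in dHep. Every dHep library was below every WT library, with log2 fold changes of -5.52 ± 0.52 (SE; adjusted p = 0.00033 in edgeR) and -3.10 ± 0.25 (SE; adjusted p = 0.000163 in edgeR). Nqo1, the quinone reductase, fell by 1.83 ± 0.22 on the log2 scale. Gclc, which limits glutathione synthesis, fell by 1.09 ± 0.19, and Srxn1, which repairs peroxiredoxins, fell by 1.63 ± 0.18. Osgin1 was the 1 rise, from 50.7, 45.3 and 44.4 to 114, 96.4 and 202 CPM (1.55 ± 0.24). Of 21 glutathione transferase genes as a family, 8 fell (5 without WT replicate 3) and 5 rose (1 with the length offset, 2 without WT replicate 2 or 3, 3 without WT replicate 1 or without WT replicate 1 and dHep replicate 2 together, 8 with DESeq2, 10 without dHep replicate 1).

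Many genes for matrix chains, matrix proteases and matrix receptors fell. Of 22 collagen chain genes, 14 fell and 0 rose, with a median log2 fold change of -1.28. Col1a1 had 19.1, 20.2 and 16.1 CPM in WT and 2.22, 4.3 and 3.68 CPM in dHep, and Col4a2, of basement membrane, had 37.6, 35.8 and 33.5 CPM in WT and 10.9, 11.4 and 9.47 CPM in dHep. The groups were apart for both, with log2 fold changes of -2.45 ± 0.27 and -1.75 ± 0.12. Of 24 genes for collagen processing and crosslinking, 7 fell, 2 rose and 15 were not called. Lox, a crosslinking enzyme, fell by 2.63 ± 0.36 on the log2 scale, while Ppib, a prolyl isomerase (0.62 ± 0.13), and Bmp1, a procollagen protease (0.50 ± 0.15), rose. Of 27 metalloproteinases and their inhibitors, 14 fell (5 without WT replicate 2, 6 without WT replicate 3, 8 with limma voom, 9 without WT replicate 1). Mmp13, a collagenase, had 3.23, 6.37 and 6.35 CPM in WT and 0.06, 0.0803 and 0.049 CPM in dHep, the largest fall by fold among called genes of at least 1 CPM without overlap (-6.28 ± 0.43, SE; adjusted p = 8.49e-05 in edgeR). Timp1, an inhibitor of these enzymes, fell with them, from 2.18, 2.93 and 3.14 to 0.24, 0.442 and 0.147 CPM (-3.28 ± 0.38). Of 43 laminins, glycoproteins and proteoglycans, 19 fell (10 without WT replicate 2, 11 without WT replicate 3) and 2 rose. Fbn1, the fibrillin of elastic fibres, had 8.3, 9.78 and 8.59 CPM in WT and 3.3, 2.57 and 2.26 CPM in dHep (-1.71 ± 0.18), while Lama3, a laminin chain, rose from 3.34, 1.52 and 2.03 to 5.34, 9.76 and 12.2 CPM (1.98 ± 0.35). Integrin genes, the cell's matrix receptors, fell in 10 of 21 cases (6 without WT replicate 1, 2 or 3).

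Markers of stellate cells and myofibroblasts, the cells that make most liver matrix, fell in 10 of 24 cases and rose in 0, though that list shares collagens and Timp1 with those above. Of 5 defining stellate markers 1 fell, and they summed to 176.7 to 211 CPM in WT and 145.5 to 203 CPM in dHep. Their summed levels overlapped. Targets of YAP and TEAD, factors that respond to cell tension, fell in 10 of 25 cases and rose in 3. Ctgf, one of them, went from 12.7, 9.67 and 11.1 to 2.22, 5.26 and 2.55 CPM (-1.74 ± 0.38).

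Inside the cell, 21 of 48 cytoskeleton genes fell (10 without WT replicate 3, 11 without WT replicate 2) and 2 rose. Tubb2a, a tubulin, had 108, 180.1 and 206 CPM in WT and 29.9, 8.47 and 19.5 CPM in dHep, without overlap (-3.09 ± 0.42). Annexins bind membranes in the presence of calcium, and 5 of 11 fell while 0 rose. Anxa2 had 133, 170.4 and 185 CPM in WT and 20.3, 18.4 and 21 CPM in dHep, with close agreement within dHep. Its log2 fold change of -3.03 ± 0.14 (SE; adjusted p = 1.67e-05 in edgeR) had the smallest p in the table. Anxa5 went from 265, 294 and 362 to 56.7, 61.6 and 61.6 CPM (-2.36 ± 0.20). Galectins and S100 proteins fell in 6 of 17 cases, among them Lgals1 (-2.52 ± 0.32) and S100a11 (-2.25 ± 0.24).

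**Figure D3:**
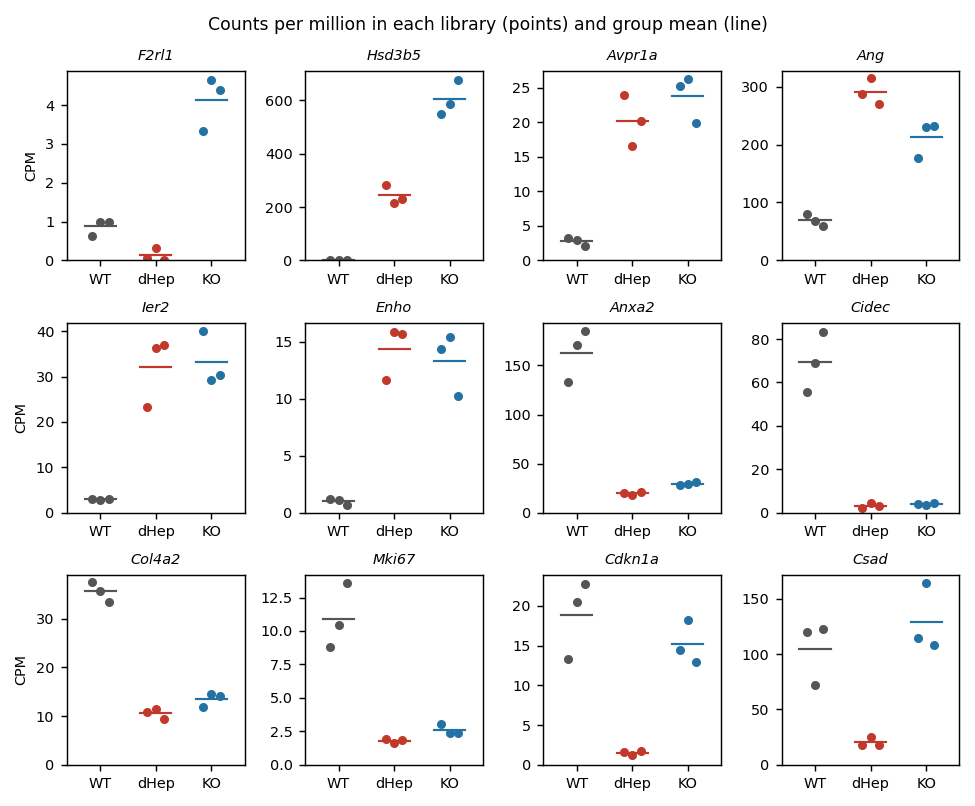
CPM of 12 genes in each of the 9 libraries (points) with the group mean (line), on linear axes that start at 0. Cdkn1a and Csad were lowest in dHep, and F2rl1 was highest in the libraries labelled KO.

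Most genes of mitosis and DNA replication fell. Of 54 mitosis and kinetochore genes, 43 fell and 0 rose, with a median log2 fold change of -2.07. The promoters of 4 fallen genes, from RefSeq (build GRCm38.p6), are shown because most of the group moved together. Each is the 250 bases before the transcription start, 5′ to 3′ on the gene's strand, which is the minus strand for all. Capitals mark CCAAT (on the other strand ATTGG), the cell cycle homology word CHR (TTTGAA or TTCGAA, on the other strand TTCAAA) and the E2F words TTTCCCGC and TTTGGCGC.
Mki67, chr7:135716380-135716629: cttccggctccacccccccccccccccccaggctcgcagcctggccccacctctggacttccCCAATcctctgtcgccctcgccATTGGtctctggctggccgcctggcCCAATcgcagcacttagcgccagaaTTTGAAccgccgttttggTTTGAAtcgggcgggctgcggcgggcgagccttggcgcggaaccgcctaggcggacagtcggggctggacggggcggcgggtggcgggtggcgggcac
Top2a, chr11:99024190-99024439: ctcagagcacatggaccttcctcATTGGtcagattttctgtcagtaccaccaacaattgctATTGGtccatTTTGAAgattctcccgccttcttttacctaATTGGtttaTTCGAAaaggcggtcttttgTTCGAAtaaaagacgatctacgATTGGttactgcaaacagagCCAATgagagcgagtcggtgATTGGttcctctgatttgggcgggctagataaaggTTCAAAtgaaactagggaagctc
Ccnb2, chr9:70421555-70421804: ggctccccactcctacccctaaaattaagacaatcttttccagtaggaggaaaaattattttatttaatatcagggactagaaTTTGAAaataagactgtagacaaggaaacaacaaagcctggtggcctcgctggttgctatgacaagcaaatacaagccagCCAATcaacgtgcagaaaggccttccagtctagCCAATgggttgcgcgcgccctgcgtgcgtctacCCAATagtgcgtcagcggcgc
Mcm6, chr1:128359706-128359955: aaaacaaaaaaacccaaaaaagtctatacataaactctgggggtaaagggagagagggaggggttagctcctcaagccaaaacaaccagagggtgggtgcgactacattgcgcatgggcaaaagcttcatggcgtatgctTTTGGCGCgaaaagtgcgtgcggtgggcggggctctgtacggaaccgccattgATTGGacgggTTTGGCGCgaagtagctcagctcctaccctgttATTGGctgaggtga
The first 3 hold CHR and CCAAT words and no E2F word, and Mcm6, a replication gene, holds 2 E2F words and no CHR word.

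Over 300 bases, which add the first 50 of the transcript, CHR words were in 75.6% of 45 mitosis promoters, against 13.8% of all 9453. CCAAT was in 75.6% and 38.9%. Without those 50 bases, CHR was in 35.6% and 12.3%. E2F words were in 33.3% of 30 replication promoters, 4.44% of mitosis promoters and 3.01% of all. Among all fallen genes 19.3% held a CHR word, and among risen genes 12.9%. No word searched contains another, and a match is a description of the letters, not of binding.

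Mki67, the marker of cycling cells, had 8.79, 10.4 and 13.6 CPM in WT and 1.95, 1.61 and 1.81 CPM in dHep, without overlap (-2.60 ± 0.21, SE; adjusted p = 0.000163 in edgeR). Top2a, the topoisomerase of mitosis, had 8.04, 9.49 and 10 CPM in WT and 1.05, 1.33 and 1.13 CPM in dHep (-2.97 ± 0.27, SE; adjusted p = 0.000294 in edgeR). Ccnb2, a mitotic cyclin named for its promoter after its values were seen, had 1.39, 2.04 and 2.46 CPM in WT and 0.18, 0.361 and 0.441 CPM in dHep (-2.61 ± 0.39, SE; adjusted p = 0.0024 in edgeR). All 3 were lower in each dHep library than in any WT library. Of 38 replication genes, 22 fell (13 without WT replicate 2 or 3) and 1 rose. Mcm6, a subunit of the replicative helicase, had 21.9, 27.3 and 22.1 CPM in WT and 6.39, 5.34 and 2.65 CPM in dHep (-2.29 ± 0.26), and Uhrf1, which maintains DNA methylation, had 3.38, 5.89 and 4.28 CPM in WT and 0.51, 0.643 and 0.687 CPM in dHep (-2.88 ± 0.30). Tk1, thymidine kinase, was the rise, with 8.04, 8.78 and 7.45 CPM in WT and 17.1, 39.1 and 52.9 CPM in dHep (2.17 ± 0.35, SE; adjusted p = 0.00317 in edgeR), so that it moved against its list in every dHep library. Of 30 cyclins, CDK inhibitors and E2F factors, 12 fell (6 without WT replicate 2 or 3) and 1 rose. Ccnd1, the cyclin of entry into the cycle, went from 78.2, 91.5 and 125 to 25.3, 32.5 and 21.6 CPM (-1.89 ± 0.27). Cdkn1a, the p21 brake on the cycle, also fell by 3.64 ± 0.25 on the log2 scale.

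**Figure D4:**
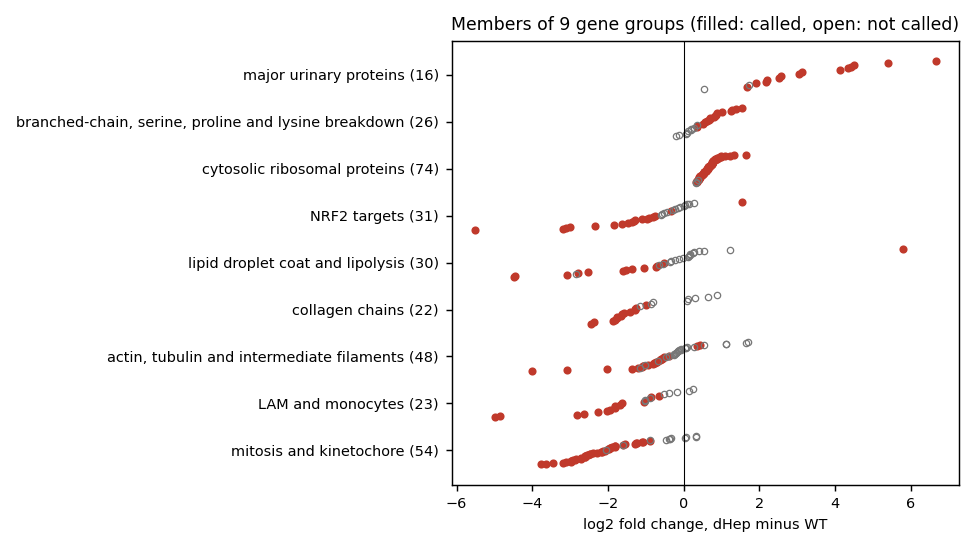
Log2 fold change, dHep minus WT, of each tested member of 9 gene groups (number in parentheses), sorted within a group, with filled points for called genes. In the mitosis group 43 of 54 were called, all to the left of 0, and in the cytosolic ribosomal group 71 of 74, all to the right.

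Most macrophage genes of the lipid-loaded kind fell, while 13 of 19 genes of resident Kupffer cells were not called. Of 23 genes of lipid-associated macrophages and monocytes, 15 fell and 0 rose. Gpnmb, a surface glycoprotein of these cells, had 11.2, 13.6 and 10.3 CPM in WT and 0.3, 0.482 and 0.441 CPM in dHep, and Itgax, which encodes CD11c, had 6.8, 8.37 and 6.7 CPM in WT and 1.05, 1.16 and 0.883 CPM in dHep. Neither overlapped, with log2 fold changes of -4.85 ± 0.46 (SE; adjusted p = 0.00034 in edgeR) and -2.81 ± 0.23 (SE; adjusted p = 0.000163 in edgeR). Cx3cr1 and Ccr2, receptors of monocytes, had log2 fold changes of -2.63 ± 0.23 and -1.82 ± 0.23. The 5 defining markers of lipid-associated macrophages all fell, and summed to 168.7 to 246.9 CPM in WT and 52.9 to 58.2 CPM in dHep. Of 19 Kupffer cell genes, 4 rose (2 without WT replicate 2 or 3) and 2 fell. That share of falls, 10.5%, was near the 11.9% over all genes, and 5 fell with DESeq2, without dHep replicate 2 or without WT replicate 1 and dHep replicate 2 together, against 4 rises in each. Clec4f, their defining lectin, had 83.1, 116 and 105 CPM in WT and 77, 130.4 and 78.7 CPM in dHep, with overlap, and was not called (-0.09 ± 0.28, SE; adjusted p = 0.846 in edgeR). Cd207 fell (-2.64 ± 0.25). Markers of T cells, B cells and neutrophils summed to at most 11.8 CPM per cell type in any of these libraries, and 0 were called.

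Chemokines and their receptors fell in 13 of 31 cases and rose in 2. Cxcl10, which attracts T cells, fell by 1.79 ± 0.26 on the log2 scale. Interferon-stimulated genes fell in 11 of 40 cases (6 without WT replicate 2 or 3) and rose in 0, among them Gbp2 (-1.70 ± 0.33) and Ifit2 (-1.23 ± 0.13). Genes of antigen presentation fell in 7 of 24 cases (3 without WT replicate 2 or 3, 4 without dHep replicate 3) and rose in 3. H2-Aa, a class II chain, had 82.8, 97.1 and 98.1 CPM in WT and 20.4, 54 and 18.3 CPM in dHep, and dHep replicate 2 lay above the other 2 dHep libraries. Its log2 fold change was -1.58 ± 0.35 (SE; adjusted p = 0.0115 in edgeR), and -2.26 without that library. Lysosome genes fell in 12 of 43 cases and rose in 2, with Atp6v1a, of the proton pump, at -0.78 ± 0.11 and Cd63 at -2.26 ± 0.26.

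Immediate-early genes, which respond to stimuli within minutes, moved in both directions. Of 29, 8 rose (4 without WT replicate 1 or without WT replicate 1 and dHep replicate 2 together, 5 without WT replicate 2 or 3) and 6 fell. Ier2 had 3.01, 2.67 and 3.03 CPM in WT and 23.4, 36.3 and 36.9 CPM in dHep, and every dHep library was far above every WT library (3.47 ± 0.21, SE; adjusted p = 7.69e-05 in edgeR). Egr1 had 6.35, 8.08 and 9.34 CPM in WT and 88.8, 104 and 78.1 CPM in dHep (3.51 ± 0.72, SE; adjusted p = 0.00876 in edgeR), and Junb rose by 3.20 ± 0.50. Klf10 (-0.93 ± 0.18), Ctgf (-1.74 ± 0.38) and Gadd45b (-1.57 ± 0.32) fell in the same livers.

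Genes for ribosomal proteins, of cytosol and mitochondria, and for the respiratory chain rose by small amounts. Of 74 genes for cytosolic ribosomal proteins, 71 rose (39 with the length offset) and 0 fell. Their median log2 fold change was 0.63, and 0.28 with the length offset, and the median length was 717.5 bases. Rps28, of the small subunit, had 37.3, 34.6 and 35.3 CPM in WT and 64.6, 66.9 and 80 CPM in dHep, and dHep replicate 3 was the highest (0.98 ± 0.11, and 0.36 with the length offset). Pseudogene copies of such genes can take part of their reads. Of 75 mitochondrial ribosomal protein genes, 34 rose (7 without WT replicate 3, 10 without WT replicate 2, 12 without WT replicate 1, 15 with the length offset, 17 without dHep replicate 3, 21 with the 2 groups alone, 54 without dHep replicate 2) and 0 fell. Their median log2 fold change was 0.39, and 0.13 with the length offset, where 2 fell. Nuclear genes for respiratory chain subunits rose in 45 of 76 cases (18 without WT replicate 3, 21 with the length offset, 22 without WT replicate 1 or 2) and fell in 0. Here the median was 0.49, and 0.14 with the length offset, where 2 fell. Ndufb4, of complex I, had 26.2, 24 and 26.2 CPM in WT and 46.2, 38.1 and 55 CPM in dHep, again highest in dHep replicate 3 (0.87 ± 0.14). Not all mitochondrial groups rose in this way: the median log2 fold change of 23 genes of beta-oxidation and ketogenesis was -0.06. Of these, 4 rose (1 without WT replicate 1, 2 or 3 or without WT replicate 1 and dHep replicate 2 together, 2 with the 2 groups alone) and 0 fell. Without dHep replicate 3, 3 rose and 6 fell, and with the length offset 2 rose and 3 fell.

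Some genes set dHep apart from WT and from the libraries labelled KO alike. The 2 contrasts share the dHep libraries, so their values are given side by side. Between the libraries labelled KO and dHep, 1264 genes (9.62%) were called, 556 (4.23%) higher and 708 (5.39%) lower in those labelled KO. The count was 807, 692 and 722 without WT replicate 1, 2 and 3, 2809 without dHep replicate 3, and 944, 419 and 386 without KO replicate 1, 2 and 3. Cdkn1a had 13.4, 20.5 and 22.8 CPM in WT and 1.59, 1.2 and 1.77 CPM in dHep. Those labelled KO held 14.5, 18.3 and 13 CPM. The dHep libraries were lowest by far, at -3.64 ± 0.25 against WT and 3.33 ± 0.25 for KO minus dHep (edgeR adjusted p = 8.87e-05 and 0.000191). Csad showed the same shape, with 119.6, 72 and 123, 18, 25.2 and 17.6 and 114, 164 and 109 CPM in the 3 groups, and log2 fold changes of -2.37 ± 0.25 and 2.67 ± 0.25. Ntrk2, a neurotrophin receptor, was lowest in dHep, with 31, 22.3 and 28.3, 4.2, 0.924 and 0.981 and 8.45, 12.7 and 26.1 CPM (-3.68 ± 0.59 and 2.89 ± 0.58, the first -4.83 without dHep replicate 1). Mmp13, Mmp12 and Gsta1 were the other genes lowest in dHep by the rule used. At the other end, Tk1 had 11.4, 7.78 and 9.06 CPM in the libraries labelled KO, near its WT level and below all dHep libraries (-1.95 ± 0.35 for KO minus dHep). Upp2, a uridine phosphorylase, had 169, 203 and 166, 265, 769.9 and 664 and 79.2, 49.1 and 88.4 CPM in the same order (1.66 ± 0.36 and -2.97 ± 0.38), and its call against WT ended without WT replicate 3 (0.0524) or without WT replicate 1 and dHep replicate 2 together (0.0583). Grid1 followed, with 1.2, 1.93 and 1.11, 4.05, 6.51 and 11.1 and 0.329, 0.497 and 0.231 CPM (2.34 ± 0.40 and -4.30 ± 0.47). For Tk1, Upp2 and Grid1, dHep replicate 1 was the lowest dHep library.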

How the data were processed

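Poly(A) RNA of 9 livers was measured. Per the submitters' processing notes, quality was checked with FastQC and HISAT2 2.1.0 placed reads on mm10. The deposited values are raw read counts by gene and library, made with featureCounts 1.6.2 at strand setting 2, per the file headers. Its Length column gives gene lengths in bases, a value of other kind, as deposited by the authors, and was used only to sort genes and for the length offset. Every column was matched to a sample. The submitters' notes also name DESeq2, whose output was not used here.

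Genes were kept by filterByExpr (minimum count 10, minimum total 15). With edgeR 4.0.16 in R 4.3.3, a quasi-likelihood model with TMM factors and group means was fitted to all 9 libraries together. Benjamini-Hochberg adjustment ran over all tested genes, and genes under 0.05 were called. The SE is the size of the log2 fold change divided by the square root of F. Ranks of 3 against 3 cannot give a two-sided exact permutation p under 0.1. On simulated counts of 13020 genes for dHep against WT, 55.7% of genes changed 2-fold and 93.9% of those changed 4-fold were found, with 5 false calls. The simulation gave a gene the same spread in all groups and changed few genes. It held no length trend and no transcripts of other organs in single libraries. Its rates may therefore not hold for the real counts, where dHep varied more than WT. The counting intervals pool the reads of the 3 libraries of a group, so they leave out the spread between mice. They cover counting error only, and reads carry no molecular identifiers.

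The members, lists and rules were chosen with earlier results of these data known. Named genes were 12 readouts, the 10 largest rises and falls by fold (at least 1 CPM, no overlap) and the 8 largest by CPM. Up to 4 called genes per list and direction were added, with 6 genes per direction that set dHep apart from both groups, 8 that varied most within dHep and 6 per direction with the smallest worst p over the alternatives. Ccnb2, the p53 targets, the ligands and the genes of the library checks were chosen after their values were seen. A subset is printed, and some items are not reported here. Promoters were taken from RefSeq (GRCm38.p6) by symbol, the first listed where there were several, and 9453 of 13141 tested genes matched. Alternatives were other size factors, DESeq2 1.42.0, limma 3.58.1 voom, other filters, 2 groups alone, a block for the replicate number, and each library left out. The length offset was added after the data were seen.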

Additional observations from a re-analysis of the deposited data

How the results depend on the processing

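The counts of called genes, rises and falls in dHep against WT stayed within 1.5 times of 3192, 1624 and 1568 with median-of-ratios factors, DESeq2, limma voom, both other filters, the 2 groups alone, the length offset and with WT replicate 1 and dHep replicate 2 both left out. Leaving out 1 library gave 1359 to 4025 called genes, 606 to 2060 rises and 753 to 1965 falls, lowest without WT replicate 3 and highest without dHep replicate 2. For KO minus dHep, 1264 became 2068 with DESeq2, 802 with limma voom, 342 with the 2 groups alone and 495 with both of those libraries left out, and 386 to 2809 without 1 library. The cause was not tested. With the replicate block, 2781 genes were called (1320 rises and 1461 falls), and 954 in KO minus dHep, while rises went from 7 to 4 among carboxylesterases and from 9 to 5 among steroid dehydrogenases, and falls from 2 to 5 among Kupffer cell genes. Same-numbered WT and dHep libraries did not deviate together (r = -0.0903, -0.272 and -0.0942 across genes). With 3 libraries per group, and transcripts of other organs in some, these values could miss a weaker pairing by number. Of 3192 called genes, 1208 passed under all 17 alternatives that gave a value (545 rises, 663 falls), and of 439 called named genes 293 did. Named genes that were not called were not checked for a change of direction. No called named gene changed direction under these alternatives. The balance of rises and falls over all genes did: falls outnumbered rises with limma voom (1359 rises, 1398 falls), the replicate block, the 2 groups alone (1165, 1232), no low-count filter (1364, 1413), the length offset (1489, 1570) and without any 1 WT library, dHep replicate 3, KO replicate 2 or 3, or both named libraries. The balance changed side under some alternative in 14 of 78 lists. Among them, glutathione transferases had 10 rises and 6 falls without dHep replicate 1, immediate-early genes 4 and 5 without WT replicate 1, and coagulation genes 5 and 7 without WT replicate 1 and dHep replicate 2. Of 67 lists with a rise, 53 had a count of rises that moved by more than 1.5 times under some alternative, and of 73 with a fall, 50. Genes changed 2-fold were found in 55.7% of simulated cases, so an uncalled gene is not shown to be unchanged.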

Other observations

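Genes that the tumour suppressor p53 is known to switch on were counted because Cdkn1a, one of them, stood apart. The list was made after these values were seen, so its count describes and supports nothing. Of 32 tested targets 14 fell and 1 rose, and the counts were the same with the length offset. Eda2r, which encodes a receptor of the cell surface, had 10.9, 10.6 and 10.3 CPM in WT and 1.05, 0.522 and 0.834 CPM in dHep, without overlap (-3.70 ± 0.24, SE; adjusted p = 8e-05 in edgeR). Tnfrsf10b, a TRAIL receptor, had 1.58, 1.48 and 1.85 CPM in WT and 0.48, 0.522 and 0.392 CPM in dHep (-1.80 ± 0.26), and Zmat3 had 15.3, 17.6 and 17.2 CPM in WT and 8.75, 9.68 and 8.88 CPM in dHep (-0.88 ± 0.11). Others were not called: Mdm2, the p53 inhibitor, had 29.5, 31.6 and 32.5 CPM in WT and 30.6, 25.9 and 22.5 CPM in dHep, with overlap (-0.24 ± 0.13), and Bax had 14.1, 15.2 and 16.6 CPM in WT and 13.6, 12.6 and 15.4 CPM in dHep, with overlap (-0.14 ± 0.13). Trp53 itself had 16.8, 16.9 and 17.3 CPM in WT and 20.4, 15 and 17.2 CPM in dHep and was not called (0.05 ± 0.13).

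Of 28 growth factor ligands and receptors, 4 rose (14.3%; 2 without WT replicate 2 or 3) and 3 fell (10.7%). Of 36 guidance genes, 2 rose (5.56%) and 4 fell (11.1%; 7 without dHep replicate 2). The genes given here are those with large changes. Nrg1, a ligand of ERBB receptors, had 1.8, 1.78 and 2.92 CPM in WT and 0.12, 0.0402 and 0.0981 CPM in dHep, without overlap (-4.54 ± 0.44, SE; adjusted p = 0.000392 in edgeR), and Ereg, a ligand of EGFR, had 1.24, 1.48 and 0.82 CPM in WT and 0.15, 0.241 and 0.147 CPM in dHep (-2.69 ± 0.46). Vegfa, which supports endothelium, rose from 61.9, 53.1 and 53.3 to 147, 94.5 and 103 CPM (1.04 ± 0.16). Robo1, a receptor of axon guidance, fell from 17.9, 31 and 28.7 to 4.47, 3.86 and 1.67 CPM (-2.93 ± 0.33). The chaperones Hsp90aa1 (-1.01 ± 0.20) and Hspb1 (-1.55 ± 0.23) fell without overlap.

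Rnase4, a secreted ribonuclease, had 564, 481 and 454 CPM in WT and 2008, 1942 and 1709.8 CPM in dHep, without overlap (1.92 ± 0.14, SE; adjusted p = 0.000134 in edgeR). It is known to share a promoter and first exons with Ang, which rose too, so their reads may not be fully separated. Avpr1a, the vasopressin receptor of hepatocytes, had 3.27, 2.96 and 2.14 CPM in WT and 24, 16.5 and 20.2 CPM in dHep, without overlap (2.86 ± 0.21, SE; adjusted p = 0.000103 in edgeR). Avpr1a, Rnase4 and Ang, with Hsd3b5, Ier2 and Enho, had the smallest worst-case p over the alternatives among rises. Among falls these were Anxa2, Wfdc2, Eda2r, Cidec, Cd36 and Col4a2.

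Among genes with very few reads in 1 group, A2m, the alpha-2 macroglobulin gene, had 88 reads over the WT libraries and 1 over the dHep libraries, a ratio of 84.8 (95% counting interval 14.8 to 3390). B430212C06Rik had 91 and 3 reads (ratio 29.2, interval 9.69 to 144). The 8 genes that varied most between the dHep libraries, among those of at least 20 CPM there, were Ctrb1, 2210010C04Rik, Pnlip, Prss2, Cpa1, Cpb1, Cel and Clps. All 8 encode enzymes or cofactors of pancreatic juice and were highest in dHep replicate 2.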
